A study of Mus musculus with 10 samples.

Results

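Pyruvate reaches the mitochondrial tricarboxylic acid (TCA) cycle along several routes, and the 35 genes described here encode the carrier, enzymes and regulators of those routes, the cycle's own enzymes and the shuttles that link the cycle to the cytosol. They were chosen by gene symbol from a table of 18407 genes, and all 35 had a row in it. The table came from NMC cells, a line of mouse cholangiocytes with no label of a genetic change. Cholangiocytes are the epithelial cells that line bile ducts. Laminin-rich spheroids (5 libraries) were grown in laminin mixed with collagen I at 3 parts to 1 by volume, and collagen I spheroids (5 libraries) were grown in collagen I alone at 1 mg/mL. Both groups were double spheroids kept for 6 days in 3D with no other treatment, so the laminin-rich matrix also held some collagen I. Laminin is a basement membrane protein and collagen I is the main fibre of connective tissue. The comparison asked how the matrix around the cells is reflected in their transcripts. All libraries came from the same line, and the labels call them biological replicates without saying how cultures were divided. The p-values given here therefore measure the spread between these samples, which may be partly technical.

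As background, pyruvate is imported into mitochondria by a carrier made of Mpc1 and Mpc2. Inside, the pyruvate dehydrogenase complex turns it into acetyl-CoA, which citrate synthase joins to oxaloacetate, and a set of kinases switches that complex off by phosphorylation. Pyruvate carboxylase, encoded by Pcx, instead turns pyruvate into oxaloacetate and so refills the cycle when intermediates are drawn off, a supply called anaplerosis. The opposite drain, cataplerosis, runs through enzymes such as Pck2 and through export of citrate or malate. Malate dehydrogenases and aspartate aminotransferases on both sides of the inner membrane form the malate-aspartate shuttle, which carries reducing equivalents of cytosolic NADH into mitochondria.

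Promoter windows are printed for Pcx, the member that passed the test between matrices, and for Ogdh and Got1, which had the next lowest p-values. They are RefSeq sequences on GRCm38.p6, each running from 250 bases before to 50 bases after an annotated start site, 5′ to 3′ on the gene's own strand. Capitals mark exact matches, on either strand, to the letters listed after the sequences. Pcx had 2 annotated starts 83847 bases apart, chr19:4510222-4510521 on the plus strand and chr19:4594069-4594368 on the plus strand. A count per gene pools transcripts from both starts, so their use could not be separated. RefSeq gave 6 windows for Ogdh, and that of its most upstream start was chr11:6291347-6291646 on the plus strand, while the Got1 window was chr19:43524556-43524855 on the minus strand.
Pcx upstream start: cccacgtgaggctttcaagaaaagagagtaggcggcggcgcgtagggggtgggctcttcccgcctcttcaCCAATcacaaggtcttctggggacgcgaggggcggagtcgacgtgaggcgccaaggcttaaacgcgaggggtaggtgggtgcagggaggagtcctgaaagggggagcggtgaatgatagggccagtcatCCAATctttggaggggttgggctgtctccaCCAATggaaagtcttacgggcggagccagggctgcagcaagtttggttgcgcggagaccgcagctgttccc
Pcx downstream start: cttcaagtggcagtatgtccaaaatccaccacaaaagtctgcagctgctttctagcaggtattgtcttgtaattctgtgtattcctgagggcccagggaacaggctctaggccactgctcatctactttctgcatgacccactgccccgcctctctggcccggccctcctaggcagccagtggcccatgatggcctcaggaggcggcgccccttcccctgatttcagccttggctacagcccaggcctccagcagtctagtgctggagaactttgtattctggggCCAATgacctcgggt
Ogdh: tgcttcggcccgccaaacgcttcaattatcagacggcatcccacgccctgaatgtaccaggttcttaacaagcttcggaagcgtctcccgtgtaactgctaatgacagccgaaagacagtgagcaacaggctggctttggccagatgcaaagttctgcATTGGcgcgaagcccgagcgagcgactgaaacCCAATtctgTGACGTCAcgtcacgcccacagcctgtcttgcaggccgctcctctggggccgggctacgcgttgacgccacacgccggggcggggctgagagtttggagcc
Got1: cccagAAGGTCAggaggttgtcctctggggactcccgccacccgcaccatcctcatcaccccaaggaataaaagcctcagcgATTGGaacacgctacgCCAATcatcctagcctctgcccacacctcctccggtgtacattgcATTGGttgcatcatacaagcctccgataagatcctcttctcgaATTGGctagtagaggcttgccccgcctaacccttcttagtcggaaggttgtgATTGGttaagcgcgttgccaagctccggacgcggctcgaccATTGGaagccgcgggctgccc

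The letters searched were CCAAT (the CCAAT box), AAGGTCA (the core site of estrogen-related receptors), TGACGTCA (the cAMP response element), CGCATGCG (the core of the NRF1 site) and AAGATGGC (the core of the YY1 site). The upstream Pcx window held 3 CCAAT matches and the downstream one held 1, which began 35 bases after its start. Got1 held 6 CCAAT matches, the last of which began 29 bases after its start. Its AAGGTCA match began 245 bases before its start. The Ogdh window shown held 2 CCAAT matches and a TGACGTCA match that began 51 bases before its start. Of the 35 members, 32 had a window in the RefSeq table, and Idh3a, Me2 and Pdp1 had none. CCAAT occurred in a window of 22 of the 32 members (68.75%), against 43.3% of the 8726 tested genes with a window. Counted by window, it occurred in 28 of 42 member windows (66.67%), against 37.41% of all windows. This motif was added after the windows had been looked at. AAGGTCA occurred in 2 members, Got1 and Ogdh (6.25%, against 3.55% of tested genes), and TGACGTCA in Mdh2 and Ogdh (6.25%, against 3.7%). CGCATGCG was found in Ogdh alone (3.12%, against 4.57%) and AAGATGGC in Idh3g alone (3.12%, against 5.62%). The Ogdh matches to AAGGTCA and CGCATGCG lay in windows of other starts, not shown. These matches describe letters in the windows, and no factor was measured.

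Totals ran from 4424725 to 7468219 counts in laminin-rich libraries and from 4913441 to 8129979 counts in collagen I libraries. Of 14 cholangiocyte markers, 12 were at 1 CPM or more (counts scaled to a common library size with TMM factors). Their summed level was 4192 to 5817 CPM in laminin-rich spheroids and 4074 to 6089 CPM in collagen I spheroids. Krt8, Krt19 and Krt18 were the highest of them, while Cldn4 and Cldn7 averaged below 1 CPM. Krt7 averaged 3.34 CPM in laminin-rich and 6.80 CPM in collagen I spheroids, and Cftr averaged 1.96 and 0.83 CPM. Fibroblast and stellate cell markers summed to 24.4 to 57.4 CPM in laminin-rich libraries and 26.2 to 34.3 CPM in collagen I libraries. Of these 10 markers, 6 averaged 1 CPM or more and Lrat was at 0. Col1a1 was the highest, at 14.2 CPM in laminin-rich and 11.5 CPM in collagen I spheroids. Directions were mixed, with Pdgfra at 9.30 and 4.01 CPM and Dcn at 3.47 and 8.10 CPM in the same order. Of the 4 tested, 0 were called. The endothelial and leukocyte markers summed to at most 2.72 and 5.69 CPM in laminin-rich libraries and 2.32 and 8.14 CPM in collagen I libraries. Of these, Vwf and Cd68 alone averaged 1 CPM or more, and Cdh5, Kdr, Adgre1 and Clec4f were among those at 0. Cd68 averaged 4.33 CPM in laminin-rich and 5.66 CPM in collagen I spheroids. The libraries differed in how their values followed transcript length, with slopes of log2 CPM per log2 length of -0.12 to 0.16 in laminin-rich libraries and -0.37 to 0.18 in collagen I libraries (two-sided exact permutation p = 0.373, n = 5 each). Each library also carries a code letter of unstated meaning. Laminin-rich replicates 1 to 3 were E and replicates 4 and 5 were F, while collagen I replicates 1 to 3 were B and replicates 4 and 5 were D. No letter occurred in both matrices, so letter and matrix cannot be told apart. Fits without letter B or D kept 2 or 3 collagen I libraries, in that order. Fits without letter E or F kept 2 or 3 laminin-rich libraries, in that order.

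Of the 35 members, 34 had enough counts to be tested, and their lowest count in any library was 66, for Pdp1. The exception was the kinase Pdk4. With edgeR's quasi-likelihood test and Benjamini-Hochberg adjustment over 10789 genes, Pcx alone among the 34 passed an adjusted p of 0.05, and it rose. Across all genes tested, 16 passed (0.148%). Before adjustment, 7 members had p below 0.05 in the direction higher in laminin-rich spheroids and 1 in the other direction. Of all genes tested, 6.7% were higher and 4.95% lower at that level. Log2 fold changes, laminin-rich minus collagen I throughout, ran from -0.40 for Pdk3 to 0.58 for Pcx with a median of 0.087, and 24 of the 34 were above 0. Over all genes tested the median was 0.0094 and 51.7% were above 0.

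**Figure D1:**
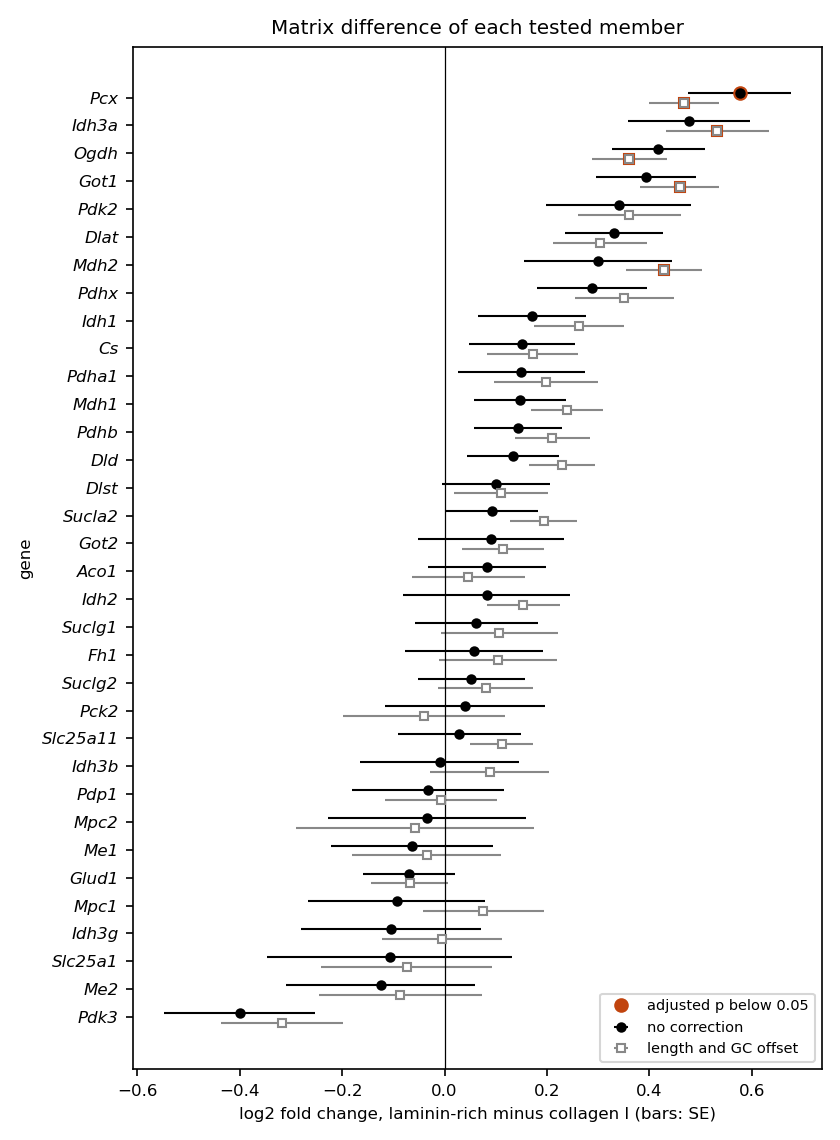
Log2 fold change (laminin-rich minus collagen I, x axis) with its standard error for each tested member (y axis), without correction (circles) and with a length and GC offset (squares); red marks an adjusted p below 0.05. Pcx is red at 0.58, Pdk3 lies lowest at -0.40, and the offset turns Idh3a, Ogdh, Got1 and Mdh2 red as well as Pcx.

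Another fit used an offset to remove, library by library, a smooth trend of the deviations in log2 CPM with gene length and GC content. The trend was estimated without the matrix labels and so also takes away any matrix difference that follows length or GC content. With the offset, 5 members were called higher (Pcx, Idh3a, Ogdh, Got1 and Mdh2) and 0 lower, against 76 of 10781 genes called higher (0.705%). DESeq2 called 4 members higher (Pcx, Ogdh, Got1 and Idh3a) and 0 lower, against 1.29% of the genes it tested called higher. Group ranges did not overlap for 6 members (Pcx, Ogdh, Got1, Idh3a, Dlat and Pdk2), all higher in laminin-rich spheroids, against 1.94% of all genes in that direction. In bulk RNA, a larger share of cells expressing a gene and more of its RNA per cell cannot be told apart.

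Single libraries moved many members together. Averaged over the 34 tested members, log2 CPM relative to the mean of the 10 libraries stood at 0.20, 0.024, 0.022, -0.072 and 0.11 in laminin-rich replicates 1 to 5, and at -0.19, -0.11, -0.10, 0.12 and 0.00021 in collagen I replicates 1 to 5. Laminin-rich replicate 1 was the highest library and collagen I replicate 1 the lowest, and the groups overlapped. Collagen I replicate 4 lay above 4 of the 5 laminin-rich libraries, and collagen I replicate 5 lay above laminin-rich replicate 4. Members took 0.551% to 0.651% of all counts in laminin-rich libraries and 0.502% to 0.613% in collagen I libraries.

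**Figure D2:**
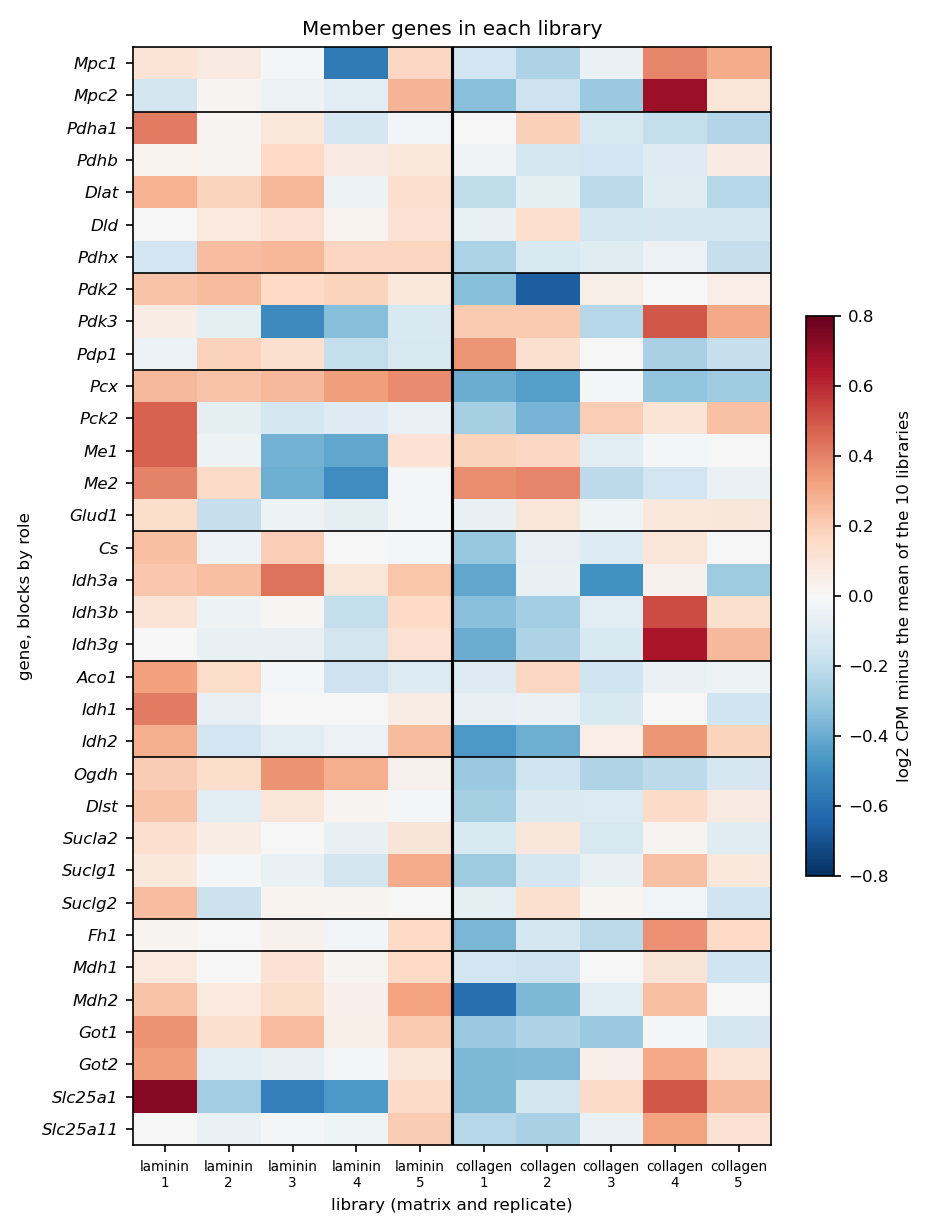
Log2 CPM of each tested member (rows, in blocks by role) minus its mean over the 10 libraries (columns, laminin-rich left of the black line and collagen I right of it). The Pcx and Ogdh rows change colour at the line, while laminin-rich replicate 1 and collagen I replicate 4 are red for many members and collagen I replicate 1 is blue.

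Pcx, which adds carbon to pyruvate to make oxaloacetate with biotin as cofactor, was the anaplerotic member that rose. It lies at chr19:4510472-4621752 on the plus strand of GRCm38. Pcx had 138, 135, 139, 146 and 151 CPM in laminin-rich spheroids and 88.0, 85.0, 114, 92.8 and 95.0 CPM in collagen I spheroids. All 5 laminin-rich libraries lay above all 5 collagen I libraries, and within collagen I replicate 3 stood above the rest. Its level averaged 142 ± 6.32 CPM in laminin-rich spheroids and 95.0 ± 11.5 CPM in collagen I spheroids (SD, n = 5 each), which is 1.49-fold (log2 fold change 0.58, SE 0.10, 95% interval 0.36 to 0.79, edgeR adjusted p = 0.0487). With the length and GC offset the log2 fold change was 0.47 (SE 0.069, adjusted p = 0.00882). By code letter, Pcx averaged 137 CPM in E and 148 CPM in F, and 95.7 CPM in B and 93.9 CPM in D.

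The Pcx call without the offset lay close to its threshold. It was lost when any library other than laminin-rich replicate 1 was left out, with edgeR adjusted p between 0.0597 and 0.162 and a log2 fold change of 0.52 to 0.65. With the offset, Pcx kept an adjusted p of 0.00692 to 0.0459 in each of the 10 fits that left out a library, but reached 0.0526 without the letter D libraries and 0.105 without the letter E libraries. The summed level of 10 hepatocyte markers averaged higher in laminin-rich spheroids, at 136 to 185 CPM against 88.5 to 137 CPM in collagen I spheroids. The ranges overlapped. The difference did not pass after adjustment over 5 marker lists (two-sided exact permutation p = 0.0159, adjusted 0.0794, n = 5 each). Most of that sum came from Hnf4a, with Alb and Ttr next, and 0 of these 3 were called (edgeR adjusted p = 0.390, 0.267 and 0.380). Of the 10 markers, 4 reached 1 CPM. The other of them, Apoa1, went the opposite way, averaging 1.24 CPM in laminin-rich and 2.31 CPM in collagen I spheroids. Cyp3a11, Cyp2e1 and Ass1 were at 0 in every library.

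**Figure D3:**
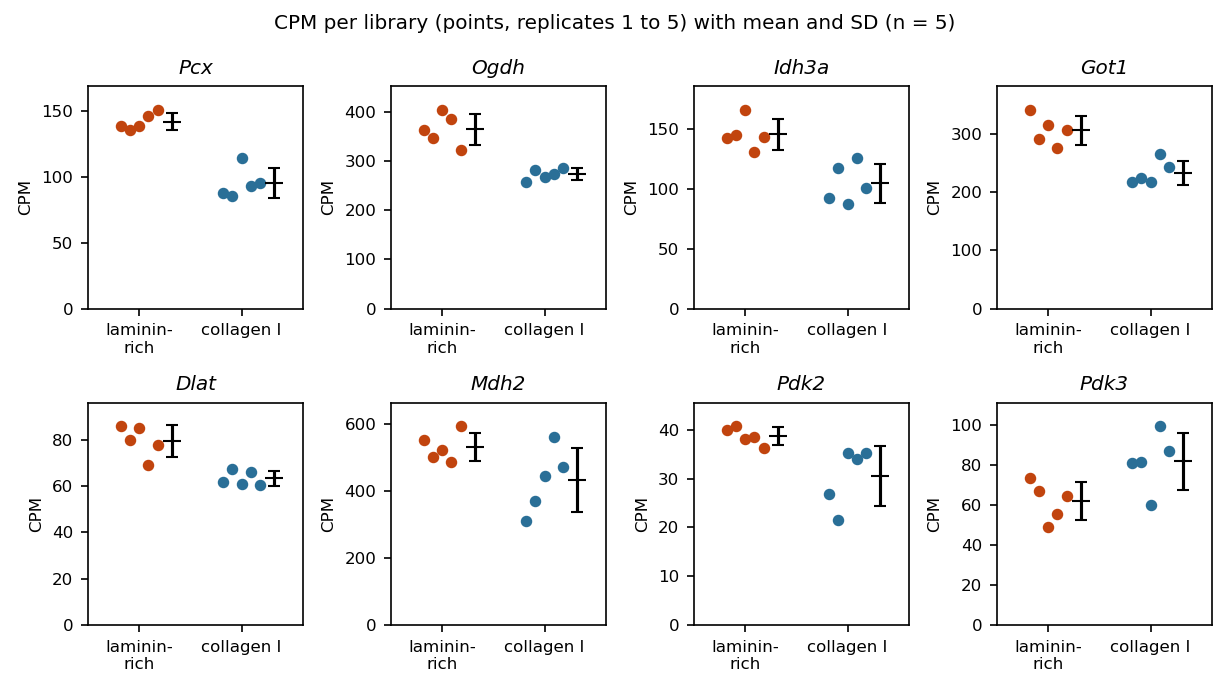
CPM in each library (points, replicates 1 to 5 left to right) with the mean and SD (n = 5) for 8 members, laminin-rich in red and collagen I in blue. The groups do not overlap for Pcx, Ogdh, Idh3a, Got1, Dlat and Pdk2, while they overlap for Mdh2 and Pdk3.

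None of the other anaplerotic and cataplerotic members passed the test. Pck2, the mitochondrial phosphoenolpyruvate carboxykinase that withdraws oxaloacetate, ranged over 87.5 to 134 CPM in laminin-rich spheroids and 74.6 to 113 CPM in collagen I spheroids (log2 fold change 0.039, SE 0.16). Me1 and Me2, the cytosolic and mitochondrial malic enzymes that turn malate into pyruvate, were more variable. Me1 ranged over 490.2 to 908 CPM in laminin-rich and 615 to 742 CPM in collagen I spheroids (log2 fold change -0.064, SE 0.16). Me2 ranged over 215 to 399 CPM in laminin-rich and 263 to 398 CPM in collagen I spheroids (log2 fold change -0.12, SE 0.18). Laminin-rich replicate 1 was the highest of its group for both malic enzymes and replicate 4 the lowest. Glud1, glutamate dehydrogenase, which feeds 2-oxoglutarate into the cycle, averaged 168 ± 13.8 CPM in laminin-rich and 176 ± 9.05 CPM in collagen I spheroids (SD, n = 5 each), and the 95% interval of its log2 difference was -0.26 to 0.13. As a description, the Pcx to Pdha1 ratio, which sets the carboxylation route beside the dehydrogenase route, was -0.73 ± 0.25 in laminin-rich and -1.17 ± 0.30 in collagen I spheroids (log2 ratio of CPM per kb, SD, n = 5 each), and the groups overlapped.

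The pyruvate carrier gave no call. Mpc1 averaged 21.8 ± 4.02 CPM in laminin-rich and 23.2 ± 4.68 CPM in collagen I spheroids, and Mpc2 averaged 22.7 ± 2.70 CPM in laminin-rich and 23.3 ± 7.74 CPM in collagen I spheroids (SD, n = 5 each). The sign of the Mpc2 difference turned in 6 of 22 alternative fits, and the letter D libraries averaged 30.2 CPM against 18.7 CPM in the letter B libraries of the same matrix. Mpc1 counts may include reads of the opposite-strand gene 4930506C21Rik, since no source says whether counting used the strand, or of the pseudogene Mpc1-ps.

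All 5 subunit genes of the pyruvate dehydrogenase complex had log2 fold changes above 0, from 0.13 for Dld to 0.33 for Dlat, and 0 of the 5 passed the test. Dlat encodes the acetyltransferase core. Its level was 85.8, 80.1, 85.1, 68.9 and 77.9 CPM in laminin-rich spheroids and 61.6, 67.5, 60.9, 66.1 and 60.3 CPM in collagen I spheroids. The groups did not overlap, with laminin-rich replicate 4 nearest to the collagen I libraries (log2 fold change 0.33, SE 0.096, edgeR adjusted p = 0.224). Pdhx, which anchors the dihydrolipoamide dehydrogenase to that core, had 36.8, 48.7, 49.2, 46.2 and 46.1 CPM in laminin-rich spheroids and 34.3, 37.7, 38.2, 39.7 and 35.9 CPM in collagen I spheroids. Laminin-rich replicate 1 fell inside the collagen I range and the other laminin-rich libraries lay above it (log2 fold change 0.29, SE 0.11, adjusted p = 0.328). Pdhb, a subunit of the pyruvate-oxidising component, had 116, 116, 127, 119 and 121 CPM in laminin-rich spheroids and 112, 103, 102, 106 and 119 CPM in collagen I spheroids. Only collagen I replicate 5 reached into the laminin-rich range (log2 fold change 0.14, SE 0.085, adjusted p = 0.546). Pdha1, its partner subunit and the target of the kinases, ranged over 139 to 204 CPM in laminin-rich and 129.9 to 175 CPM in collagen I spheroids. Dld, the dihydrolipoamide dehydrogenase shared with the 2-oxoglutarate complex, ranged over 106 to 116 CPM in laminin-rich and 96.6 to 117 CPM in collagen I spheroids. The 95% intervals of their log2 differences were -0.12 to 0.42 for Pdha1 and -0.062 to 0.33 for Dld.

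The kinases that inactivate the complex differed in sign. Pdk2 had 40.0, 40.7, 38.1, 38.5 and 36.2 CPM in laminin-rich spheroids and 26.8, 21.4, 35.3, 34.0 and 35.3 CPM in collagen I spheroids. The groups did not overlap, but 3 collagen I libraries lay just below the laminin-rich range and replicates 1 and 2 further down (log2 fold change 0.34, SE 0.14, edgeR adjusted p = 0.370). Pdk3 had 73.3, 66.8, 49.2, 55.4 and 64.5 CPM in laminin-rich spheroids and 81.2, 81.4, 60.1, 99.3 and 86.8 CPM in collagen I spheroids. It was the member with the lowest log2 fold change (-0.40, SE 0.15, adjusted p = 0.321), and collagen I replicate 3 overlapped the laminin-rich libraries. Without the letter B libraries, with 2 collagen I libraries left, Pdk3 was called lower (log2 fold change -0.62, adjusted p = 0.0269). That fit called 7.96% of all genes tested lower and 10.9% higher. Pdk4, a kinase induced by fasting and by fatty acids in other tissues, had 1 count in laminin-rich replicate 3 (0.160 CPM) and 0 in the other 9 libraries, where a count of 0 allows a level up to that of 3 counts, 0.369 to 0.678 CPM. The phosphatase Pdp1, which reactivates the complex, averaged 16.6 ± 1.89 CPM in laminin-rich and 16.9 ± 3.00 CPM in collagen I spheroids (SD, n = 5 each). Among companion genes, Pdk1, a kinase known as a target of hypoxia signalling, averaged 241 ± 53.5 CPM in laminin-rich and 288 ± 51.6 CPM in collagen I spheroids and did not pass the test (log2 fold change -0.26, SE 0.17).

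At the entry of the cycle, Cs, citrate synthase, ranged over 300.0 to 366 CPM in laminin-rich and 251 to 332 CPM in collagen I spheroids, and the 95% interval of its log2 difference was -0.072 to 0.37. The NAD-dependent isocitrate dehydrogenase is built from products of Idh3a, Idh3b and Idh3g, with Idh3a giving the catalytic subunit. Idh3a lies at chr9:54586334-54604661 on the plus strand. It had 143, 145, 166, 131 and 143 CPM in laminin-rich spheroids and 92.1, 118, 87.5, 126 and 101 CPM in collagen I spheroids. The groups did not overlap, and laminin-rich replicate 4 and collagen I replicate 4 were the closest pair. The 1.39-fold difference did not pass the test (log2 fold change 0.48, SE 0.12, edgeR adjusted p = 0.142), and was called with the offset (log2 fold change 0.53, SE 0.10, adjusted p = 0.0274). The offset call was lost without laminin-rich replicate 2, 3 or 5 or collagen I replicate 1, 3 or 5, with adjusted p between 0.0575 and 0.0890, and without letters B, D or E (adjusted p = 0.0571, 0.0526 and 0.338).

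Neither regulatory subunit gene passed the test. Idh3b averaged 152 ± 14.4 CPM in laminin-rich and 153 ± 39.4 CPM in collagen I spheroids (log2 fold change -0.0099, SE 0.16), and Idh3g averaged 97.1 ± 6.74 CPM in laminin-rich and 105 ± 32.7 CPM in collagen I spheroids (log2 fold change -0.11, SE 0.18), with SD over 5 libraries each. Collagen I libraries split by letter for both genes, with Idh3g at 118 to 155 CPM in the letter D libraries and 75.0 to 90.8 CPM in the letter B libraries. Without the letter B libraries, with 2 collagen I libraries left, Idh3g was called lower (log2 fold change -0.52, adjusted p = 0.0258). That fit called 7.96% of all genes tested lower. Without the letter D libraries the Idh3g value was 0.22 and not called. The log2 ratio of Idh3a to Idh3g per kb was 0.10 to 0.50 in laminin-rich and -0.62 to 0.19 in collagen I libraries, so the groups overlapped. Idh3b shares exon sequence with Nop56 on the opposite strand.

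Isocitrate is also oxidised by NADP-dependent enzymes, Idh1 in the cytosol and Idh2 in mitochondria. Idh1 had 181, 129, 135, 135 and 141 CPM in laminin-rich spheroids and 129, 131, 124, 135 and 121 CPM in collagen I spheroids. Laminin-rich replicate 1 stood above every other library and the rest overlapped (log2 fold change 0.17, SE 0.11, edgeR adjusted p = 0.564). Idh2 ranged over 277 to 378 CPM in laminin-rich and 225 to 394 CPM in collagen I spheroids. Aco1, the cytosolic aconitase that also acts as an iron-regulated RNA-binding protein, ranged over 83.2 to 117 CPM in laminin-rich and 83.6 to 105 CPM in collagen I spheroids, and neither passed the test.

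Ogdh encodes the decarboxylating component of the 2-oxoglutarate dehydrogenase complex, a rate-controlling step of the cycle, at chr11:6291633-6356642 on the plus strand. It had 363, 348, 404, 386 and 323 CPM in laminin-rich spheroids and 257, 283, 267, 273 and 287 CPM in collagen I spheroids. The groups did not overlap, and the collagen I libraries lay closer together than the laminin-rich ones. The difference was 1.34-fold (log2 fold change 0.42, SE 0.090, 95% interval 0.22 to 0.61), with an edgeR adjusted p of 0.0990 that did not pass. Ogdh was called with the offset (log2 fold change 0.36, SE 0.073, adjusted p = 0.0365) and by DESeq2 (adjusted p = 0.000405). The offset call was lost without laminin-rich replicate 2 or 3 or collagen I replicate 1, 2, 3, 4 or 5, with adjusted p between 0.0518 and 0.106, and without the libraries of each code letter in turn (adjusted p = 0.0717 without B, 0.0896 without D, 0.352 without E and 0.0518 without F). By letter, Ogdh averaged 372 CPM in E and 355 CPM in F, and 269 CPM in B and 279.6 CPM in D.

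Dlst, which encodes the succinyltransferase core of the same complex, averaged 140.1 ± 11.7 CPM in laminin-rich and 131 ± 15.1 CPM in collagen I spheroids (log2 fold change 0.10, SE 0.10). The log2 ratio of Ogdh to Dlst per kb was 0.842, 1.09, 1.13, 1.14 and 0.91 in laminin-rich libraries and 0.836, 0.82, 0.74, 0.50 and 0.65 in collagen I libraries. Among 12 ratios between members this was the one whose groups did not overlap, by a narrow margin between laminin-rich replicate 1 and collagen I replicate 1. The ratios were formed with results known and were not tested. Succinyl-CoA is then cleaved by a ligase whose shared subunit comes from Suclg1 and whose ADP- or GDP-specific partner comes from Sucla2 or Suclg2. Their log2 fold changes were 0.062 for Suclg1 (SE 0.12), 0.092 for Sucla2 (SE 0.090) and 0.052 for Suclg2 (SE 0.10), and 0 of the 3 passed. Sucla2 averaged 95.3 ± 5.11 CPM in laminin-rich and 89.4 ± 6.15 CPM in collagen I spheroids, Suclg1 114 ± 13.9 CPM in laminin-rich and 109 ± 15.1 CPM in collagen I spheroids, and Suclg2 58.7 ± 6.24 CPM in laminin-rich and 56.6 ± 4.23 CPM in collagen I spheroids (SD, n = 5 each).

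Succinate dehydrogenase, which is also part of the respiratory chain, was followed through the companion genes Sdha, Sdhb, Sdhc and Sdhd. None was called, and their log2 fold changes were 0.24, 0.060, 0.18 and 0.14 in that order. Sdha, the flavoprotein subunit, had 368, 333, 364, 313 and 351 CPM in laminin-rich spheroids and 269, 288, 288, 328 and 290.4 CPM in collagen I spheroids, and collagen I replicate 4 alone reached the laminin-rich range. Fh1, fumarase, averaged 102 ± 5.15 CPM in laminin-rich and 97.6 ± 20.8 CPM in collagen I spheroids (log2 fold change 0.058, SE 0.13; SD, n = 5 each). Its collagen I values ran wider, 76.4 to 127 CPM, than its laminin-rich values, 97.3 to 110.4 CPM.

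Among the malate and aspartate enzymes, Got1 and Mdh2 had the largest log2 fold changes, and neither passed the test without the offset. Got1, the cytosolic aspartate aminotransferase at chr19:43499752-43524605 on the minus strand, had 342, 292, 316, 275 and 308 CPM in laminin-rich spheroids and 217, 225, 217, 265 and 243 CPM in collagen I spheroids. The groups did not overlap, although collagen I replicate 4 came close to laminin-rich replicate 4. The 1.31-fold difference did not pass the test (log2 fold change 0.39, SE 0.097, edgeR adjusted p = 0.140), and was called with the offset (log2 fold change 0.46, SE 0.078, adjusted p = 0.0164) and by DESeq2 (adjusted p = 0.00912). The offset call was lost without laminin-rich replicate 3 or collagen I replicate 3 or 5, with adjusted p between 0.0532 and 0.0603, and without letters D or E (adjusted p = 0.0806 and 0.276).

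Mdh2, the mitochondrial malate dehydrogenase, had 553, 499, 522, 487 and 592 CPM in laminin-rich spheroids and 311, 369, 444, 559.7 and 472 CPM in collagen I spheroids. The groups overlapped because collagen I replicate 4 lay among the laminin-rich libraries, while collagen I replicates 1 and 2 were far below them. Mdh2 did not pass without the offset (log2 fold change 0.30, SE 0.14, edgeR adjusted p = 0.444), and was called with it (log2 fold change 0.43, SE 0.074, adjusted p = 0.0175). The offset call was lost without laminin-rich replicate 3 or collagen I replicate 2 or 5, with adjusted p between 0.0553 and 0.0590, and without letters D, E or F (adjusted p = 0.0526, 0.221 and 0.0518). Without the letter B libraries and without the offset, the Mdh2 log2 fold change was 0.013.

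Mdh1, the cytosolic malate dehydrogenase, had 349.9, 331, 359, 337 and 369 CPM in laminin-rich spheroids and 297, 295, 332, 356 and 296 CPM in collagen I spheroids, and collagen I replicates 3 and 4 overlapped the laminin-rich libraries (log2 fold change 0.15, SE 0.090, edgeR adjusted p = 0.562). Got2, the mitochondrial aminotransferase, averaged 252 ± 31.5 CPM in laminin-rich and 237 ± 47.7 CPM in collagen I spheroids (SD, n = 5 each). Neither carrier passed the test. Slc25a11, which exchanges 2-oxoglutarate for malate, averaged 179.8 ± 13.7 CPM in laminin-rich and 176 ± 30.4 CPM in collagen I spheroids. Slc25a1, the citrate exporter, had the largest standard error of the members, with values of 97.1 to 235 CPM in laminin-rich and 110.4 to 200.1 CPM in collagen I spheroids (log2 fold change -0.11, SE 0.24). Opposite-strand exons overlap Mdh1, Got2 and Slc25a11, as they do Pdha1, Pck2 and Me1, and Got2 has a pseudogene copy, so their counts may hold reads of other genes.

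The companion list held 77 other genes of these pathways, of which 73 were in the table and 60 were tested. None passed the edgeR test at an adjusted p of 0.05, and 4 higher and 1 lower had an unadjusted p below 0.05. Over all genes tested, 6.7% were higher and 4.95% lower at that level. The median log2 fold change of the 60 was 0.071. Genes of biotin enzymes other than Pcx and of biotin transport and handling gave 0 calls of 9. Among the enzymes, log2 fold changes were 0.26 for Pcca, -0.0058 for Pccb, 0.082 for Mccc1, 0.072 for Mccc2 and 0.15 for Acaca. These encode the carboxylases of propionyl-CoA, methylcrotonyl-CoA and cytosolic acetyl-CoA. Acacb, the mitochondrion-associated acetyl-CoA carboxylase, named here after its values were seen, was at 15.9 to 31.8 CPM in laminin-rich and 9.16 to 17.7 CPM in collagen I spheroids, and its groups overlapped. Its log2 fold change of 0.62 (SE 0.22, edgeR adjusted p = 0.309) was larger than that of Pcx and did not pass, and it was 0.31 with the offset. Glul, glutamine synthetase, was at 129 to 179 CPM in laminin-rich and 116 to 154 CPM in collagen I spheroids. Acly, which splits exported citrate into acetyl-CoA and oxaloacetate, averaged 302 ± 44.0 CPM in laminin-rich and 349 ± 52.4 CPM in collagen I spheroids (log2 fold change -0.21, SE 0.13). The aspartate-glutamate carriers Slc25a12 and Slc25a13 had log2 fold changes of 0.17 (SE 0.099) and -0.11 (SE 0.13). The remaining regulators of the dehydrogenase complex, the phosphatase Pdp2 and the phosphatase regulator Pdpr, had log2 fold changes of 0.11 (SE 0.24) and 0.42 (SE 0.41). Pdpr had 18.2, 29.6, 36.1, 28.9 and 15.7 CPM in laminin-rich spheroids and 29.9, 32.7, 18.8, 4.48 and 10.1 CPM in collagen I spheroids, and had the largest standard error of the genes named. Without the letter B libraries, with 2 collagen I libraries left, Pdpr was called higher (log2 fold change 1.77, adjusted p = 0.0222). That fit called 10.9% of all genes tested higher.

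Some paralogues of a step were at or near 0 in both matrices. Pck2 stood at 99.2 ± 19.6 CPM in laminin-rich and 96.5 ± 17.9 CPM in collagen I spheroids, while its cytosolic counterpart Pck1, a marker of gluconeogenic liver and kidney, had no count in any library. Ldha, the lactate dehydrogenase subunit that predominates in glycolytic cells, averaged 2444 ± 512 CPM in laminin-rich and 2327 ± 321 CPM in collagen I spheroids, while Ldhb had at most 1 count in a library. Likewise, Pdk1, Pdk2 and Pdk3 were tested while Pdk4 was too low to test.

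Levels between genes were compared per length of the longest annotated transcript. Mdh2 had the highest level of the members, 330.4 CPM per kb in laminin-rich and 268 CPM per kb in collagen I spheroids. It was followed by Me1 at 198 CPM per kb in laminin-rich and 206 CPM per kb in collagen I spheroids, and Idh2 at 180.2 CPM per kb in laminin-rich and 170.2 CPM per kb in collagen I spheroids, and these 2 did not differ beyond their spread. Tested members at the low end were Pdp1 at 3.95 CPM per kb in laminin-rich and 4.03 CPM per kb in collagen I spheroids, and Mpc2 at 5.65 CPM per kb in laminin-rich and 5.80 CPM per kb in collagen I spheroids. Within the pyruvate dehydrogenase complex, Dlat at 19.7 CPM per kb in laminin-rich and 15.7 CPM per kb in collagen I spheroids and Pdhx at 18.1 CPM per kb in laminin-rich and 14.8 CPM per kb in collagen I spheroids lay below the other subunits. Pcx, at 34.2 CPM per kb in laminin-rich and 22.9 CPM per kb in collagen I spheroids, stood between Pdk3 and Fh1 in laminin-rich spheroids and between Pck2 and Aco1, close to Mpc1, in collagen I spheroids.

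**Figure D4:**
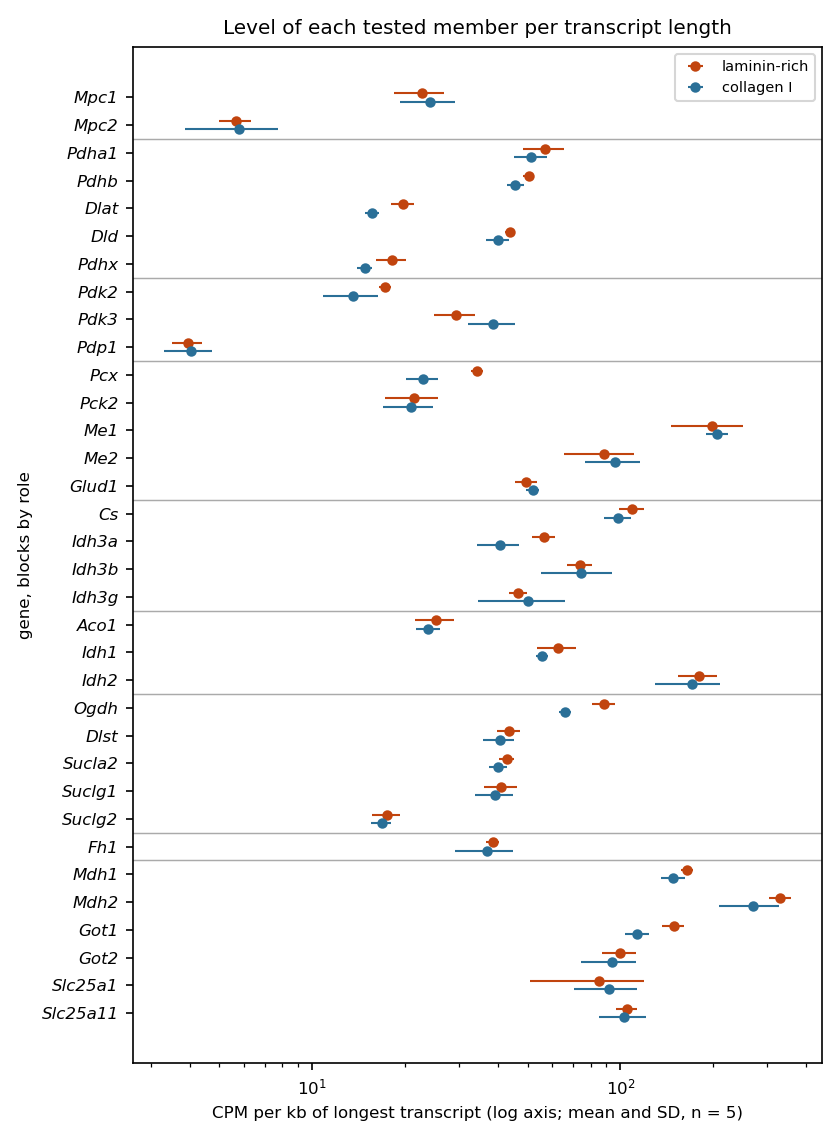
Level of each tested member as CPM per kb of its longest transcript (x axis, log scale), mean and SD of 5 libraries, laminin-rich in red above collagen I in blue, in blocks by role. Pdp1 and Mpc2 lie at the low end and Mdh2 at the high end in both matrices.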

How the data were processed

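Poly(A) RNA was sequenced from 10 spheroid samples of the NMC line, with stranded libraries made from 30 ng of RNA, per the labels' protocols. The authors deposited whole-number read counts per gene symbol for each library, with no normalization. The submitters' processing notes name DESeq2 and the build GRCm38 (mm10). The aligner, the counter, its annotation and whether it used the strand were not given in the sources used here. Of 18407 genes, 3984 had no count. A count of 0 allows up to 3 counts, or 0.369 to 0.678 CPM by library, counting error only.

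Members and lists were chosen with earlier results of these data known. The genes named are all 35 members, called companion genes and a fixed set of companion genes, with values by library for the 12 members of lowest p. Sdhaf2, Acacb and Slc38a2 were named after their values were seen. Many other genes of the companion and marker lists enter the counts without being named, and some results are not reported here.

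The filterByExpr filter left 10789 genes. Libraries were scaled by TMM and compared by edgeR 4.0.16 in R 4.3.3 (two-sided quasi-likelihood F test with matrix as the sole term), with Benjamini-Hochberg adjustment over all genes tested and a threshold of 0.05. The SE is the log2 fold change divided by the square root of F. Marker sums were compared by exact permutation tests. GENCODE M21, matched by symbol for 18338 genes, gave positions and the length and GC content of each gene's longest transcript, and the offset used splines of 5 degrees of freedom each, which left 10781 genes. Alternatives were DESeq2 1.42.0, limma-voom (limma 3.58.1), no filter, 1 CPM in 5 libraries, scaling by DESeq2 size factors or by library size only, a replicate block, the offset, and leaving out each library or code letter. Leaving out libraries in the offset fit was added after seeing the data. The steps were tested on simulated counts that held no length or GC trend and no code letters. That test therefore cannot show how such features affect the calls. The closest pair of libraries of a group, collagen I replicates 1 and 2, differed by more than sampling noise (chi-square per degree of freedom 3.32). The other pairs ran from 5.69 to 51.8. All were kept as separate samples, although this does not show that they came from separate cultures.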

Additional observations from a re-analysis of the deposited data

Results flagged for a closer look

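A library was set apart when its gap to the nearest of the other 4 of its group exceeded Dixon's 95% critical value of 0.71 of the group's range. Over 106 groups of a named gene in a matrix, 7 were set apart, where chance gives about 5.3.

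Laminin-rich replicate 1 accounted for 3 of them. It had 181 CPM of Idh1, with the next library of its group at 141 CPM. Its Pck2 value was 134 CPM, with the next at 93.1 CPM. For Pdhx it was the low library, at 36.8 CPM against 46.1 CPM in the nearest. That replicate also had the highest average over the 34 tested members.

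Laminin-rich replicate 4 was low for Mpc1, at 14.8 CPM, with the next library at 21.9 CPM. Laminin-rich replicate 5 was high for Slc25a11, at 204 CPM, with the next at 177 CPM. In collagen I, replicate 4 was low for Pdp2, at 5.50 CPM against 10.4 CPM in the nearest, and replicate 2 was high for Slc25a12, at 58.9 CPM against 52.3 CPM in the nearest. None of these 7 genes was called by edgeR in the comparison of matrices.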

How the results depend on the processing

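Pcx kept its direction in all 22 alternatives and its call in 5 (DESeq2, limma-voom, the offset, without letter B and without laminin-rich replicate 1). Its log2 fold change was 0.56 with DESeq2 size factors (edgeR adjusted p = 0.0535) and with library size only (0.0631), 0.55 with no filter (0.0503), 0.56 with 1 CPM in 5 libraries (0.0530), and 0.56, 0.62 and 0.52 without letters D, E and F (0.140, 0.409 and 0.184). Leaving out each library gave 0.52 to 0.65. Members called numbered 4 with DESeq2, 5 with the offset and 3 without letter B (Pcx higher, Pdk3 and Idh3g lower), and 0 with no filter, 1 CPM in 5 libraries, DESeq2 size factors, library size only and without letters D, E or F. Each library left out gave 0 to 1. With the offset the count was 1 to 6 without each library (1 without laminin-rich replicate 3 or collagen I replicate 5), 3 without letter B or F and 0 without letter D or E. Companion genes called numbered 1 with DESeq2, 1 with the offset and 4 without letter B (Sdhaf2, Pdpr, Acacb and Slc38a2). Of all genes tested, DESeq2 called 1.29% higher, the offset fit 0.705% higher, and the fit without letter B 10.9% higher and 7.96% lower. All genes called numbered 214 with DESeq2, 29 with no filter, 102 with the offset, 2083 without letter B, 5 without D, 1 without E, 5 without F, and 0 to 64 without each library, with 0 without laminin-rich replicate 2 or collagen I replicates 3 or 5 and 64 without laminin-rich replicate 1. Of other named genes' values, 1100 stayed on their side of the threshold and within the spread, 32 moved and 12 gained a call. The cause was not tested.

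With the replicate number as a block, Pcx was at 0.58 (adjusted p = 0.226), members called were 0 and all genes called were 0, with 1049 at an unadjusted p below 0.05. Deviations of same-numbered libraries correlated at -0.31, 0.26, -0.11, -0.33 and 0.48. These mixed signs do not show pairing by number, and they cannot exclude it.

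Depth limits Pdk4, Pck1 and Ldhb, which had at most 1 count in a library. Code letters and matrix cannot be told apart, and the other scalings shifted the median of all genes by at most 0.015 in size.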
